A study of Homo sapiens with 11 samples.

Results

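The genes described here are 30 human genes that make cholesterol, sense it, move it within the cell or send it out. They were taken by name, with earlier results of these data known, and are 30 of the 61566 genes in the deposited RNA sequencing tables. Of these, 18 encode enzymes of sterol synthesis, 6 encode the sterol-sensing machinery and a transport protein, and 6 encode proteins of cholesterol efflux, esterification and the liver X receptor (LXR) response. The cells were SK-MEL-103, an established human melanoma line, grown for 6 days with the solvent DMSO (4 libraries), with 0.25 µM etoposide (4 libraries) or with 0.5 µM tozasertib (3 libraries), with medium and drug renewed on day 3. Etoposide poisons topoisomerase II and leaves DNA breaks, whereas tozasertib inhibits the Aurora kinases of mitosis, and the question put to these libraries was whether drug-treated cells show a senescence programme, in which division stops for good. Only 1 cell line was used. Whether replicates came from different dishes is not stated, and the p-values therefore reflect library-to-library spread that may be technical.

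Cells build cholesterol from acetyl-CoA through mevalonate, farnesyl diphosphate, squalene and lanosterol. When sterols in the endoplasmic reticulum run low, SCAP carries the SREBP transcription factors to the Golgi, where they are cut and freed to switch on the genes of synthesis and uptake, and when sterols are plentiful the INSIG proteins hold SCAP back. Oxysterols, the oxidized products of cholesterol, activate the LXR receptors, which switch on genes of export such as ABCA1, so that synthesis and export usually answer to sterols in opposite directions.

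Libraries held 27882689 to 56534763 estimated reads. The members took 0.305% to 0.343% of the reads in DMSO libraries, but 0.101% to 0.103% under etoposide and 0.0989% to 0.101% under tozasertib, which left between 28199 and 105569 reads on them per library. CPM here are reads scaled to a common library total with the TMM factors of edgeR, and levels of different genes are compared only as TPM, which also allow for transcript length. In bulk RNA, fewer cells of a type and less RNA per cell cannot be told apart.

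All 18 synthesis members fell under both drugs. Against DMSO, 23 of the 24 synthesis and sensing members were called lower with etoposide and 23 with tozasertib, at an adjusted p under 0.05 in edgeR's quasi-likelihood test. Over all 17039 genes tested, 30.7% were called lower with etoposide and 29.4% with tozasertib. At least a 2-fold fall was called for 18 of the 24 with etoposide, against 7.62% of all genes, and for 19 with tozasertib, against 7.26% of all genes. The median log2 fold change of the 24 was -1.90 with etoposide and -2.01 with tozasertib, where the median of all genes tested was -0.01 and 0.02. Both comparisons share the DMSO libraries. Summed over the 18 synthesis members, the level was 2304 ± 149 CPM with DMSO (SD, n = 4), 494 ± 10.03 with etoposide (n = 4) and 449.8 ± 7.08 with tozasertib (n = 3).

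**Figure D1:**
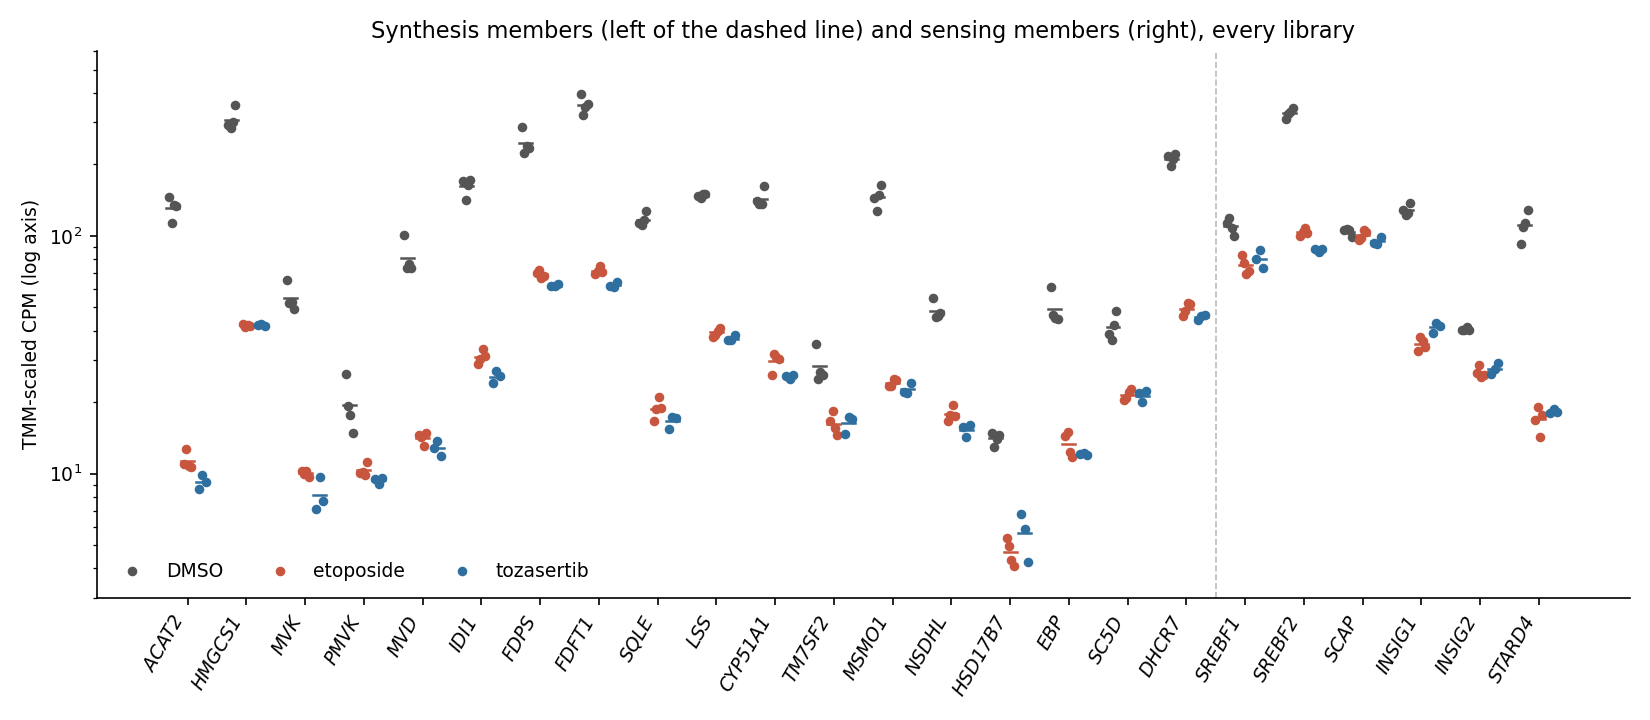
Levels of the 18 synthesis members and the 6 sensing members in CPM on a log axis, with a point for each of the 11 libraries and a short line at each group mean. The synthesis members have their DMSO points above all drug points, while the SCAP points of the 3 groups lie together.

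The pathway opens with 2 enzymes that join acetyl units. ACAT2, the cytosolic thiolase that makes acetoacetyl-CoA, fell more than any other member. It stood at 145, 113, 135 and 133 CPM with DMSO, 11.01, 12.7, 10.8 and 10.7 with etoposide and 8.64, 9.89 and 9.24 with tozasertib. Its log2 fold change was -3.54 (95% CI -3.74 to -3.34, adjusted p = 1.06e-11) with etoposide, a fall of 11.6-fold, and -3.83 (95% CI -4.06 to -3.61, adjusted p = 2.06e-11) with tozasertib, a fall of 14.2-fold. ACAT2 overlaps TCP1 and SOD2 on the other strand, by 615 and 485 bases, in a library that keeps strand. HMGCS1, which adds a further acetyl unit to give HMG-CoA, stood at 292, 285, 301 and 354 CPM with DMSO, 42.8, 41.6, 42.0 and 41.8 with etoposide and 42.1, 42.4 and 41.9 with tozasertib. The DMSO libraries all lay far above the drug libraries, and the drug groups overlapped each other. The fitted log2 changes of HMGCS1 were -2.87 (95% CI -3.02 to -2.72, adjusted p = 7.07e-12) and -2.87 (95% CI -3.04 to -2.70, adjusted p = 2.06e-11).

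Mevalonate is next phosphorylated by MVK and PMVK, decarboxylated by MVD and isomerized by IDI1. MVK ran from 49.5 to 65.3 CPM in DMSO libraries, 9.65 to 10.3 under etoposide and 7.13 to 9.72 under tozasertib, and its log2 change was -2.45 and -2.76 with etoposide and tozasertib. MVD fell to a like degree, from 73.2 to 101 CPM to 13.1 to 14.8 and 11.9 to 13.7, with log2 changes of -2.51 and -2.66. IDI1 stood at 169.6, 142, 163 and 171 CPM with DMSO, 28.9, 30.3, 33.3 and 31.2 with etoposide and 24.0, 27.0 and 25.8 with tozasertib, and fell by 2.38 and 2.66 on the log2 scale (adjusted p = 3.83e-11 and 4.65e-11). PMVK was the exception in this stretch of the pathway. It ran from 14.9 to 26.2 CPM with DMSO to 9.84 to 11.3 and 9.05 to 9.60 with the drugs, a log2 change of -0.92 (95% CI -1.22 to -0.62, adjusted p = 7.78e-05) with etoposide and -1.05 (95% CI -1.38 to -0.72, adjusted p = 5.53e-05) with tozasertib.

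DMSO replicate 1 had the highest PMVK, MVD, EBP and TM7SF2 levels of its group. In that library, short genes read high: across genes its deviation from the DMSO mean had a rank correlation of -0.478 with gene length, where the other 10 libraries ran from -0.0772 to 0.402. DMSO replicate 1 was the highest DMSO library for 10 of the 18 synthesis members and DMSO replicate 4, at 0.402, for the other 8. Without DMSO replicate 1, the log2 change with etoposide was -0.75 for PMVK, -0.68 for TM7SF2, -1.77 for EBP and -2.40 for MVD, and all 4 were still called lower with both drugs.

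FDPS makes farnesyl diphosphate, from which sterols, dolichol and ubiquinone all derive. It ran from 223 to 286 CPM in DMSO libraries and 66.7 to 71.9 under etoposide and 61.3 to 62.8 under tozasertib, log2 changes of -1.83 and -1.99. FDFT1, which condenses farnesyl diphosphate into squalene and so commits it to sterols, fell from 322 to 393 CPM to 69.4 to 74.8 and 61.1 to 64.0, by 2.31 and 2.51 on the log2 scale. SQLE, the epoxidase that is a rate-limiting step of the late pathway, stood at 113, 111, 117 and 127 CPM with DMSO, 16.7, 18.7, 20.9 and 18.9 with etoposide and 15.4, 17.3 and 17.2 with tozasertib. Its log2 changes were -2.64 (95% CI -2.81 to -2.47, adjusted p = 2.68e-11) and -2.81 (95% CI -3.00 to -2.62, adjusted p = 4.65e-11). LSS closes the ring to lanosterol and had the smallest relative spread between DMSO replicates of the 18, at 144 to 151, 37.7 to 40.9 and 36.3 to 38.2 CPM in the 3 groups, with log2 changes of -1.91 and -1.996 (SE 0.0499 and 0.0554).

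From lanosterol on, 8 members remove methyl groups, shift a double bond and reduce the ring to cholesterol. CYP51A1, the lanosterol demethylase, and MSMO1, the methylsterol oxidase, fell most among them. Their log2 changes were -2.27 and -2.60 with etoposide and -2.48 and -2.69 with tozasertib. DHCR7, the last reductase of 1 branch, went from 196 to 219.9 CPM to 46.1 to 52.0 and 44.4 to 46.6, changes of -2.09 and -2.21. The isomerase EBP changed by -1.88 and -2.03, and NSDHL, a decarboxylating dehydrogenase, by -1.44 and -1.66. HSD17B7, the keto-reductase beside it, was at 12.9 to 14.9 CPM in DMSO libraries, 4.08 to 5.39 under etoposide and 4.26 to 6.74 under tozasertib, and its log2 changes were -1.58 and -1.32. At most 3 reads went to either HSD17B7 pseudogene in any library, at most 1.95% of the reads of HSD17B7.

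TM7SF2, a sterol reductase, fell least of the 18 with each drug. TM7SF2 stood at 35.1, 25.1, 26.8 and 26.0 CPM with DMSO, 16.7, 18.3, 15.6 and 14.5 with etoposide and 14.7, 17.3 and 16.9 with tozasertib. It fell by 0.80 on the log2 scale with etoposide and by 0.80 with tozasertib (adjusted p = 3.87e-05 and 8.66e-05). SC5D, the desaturase, went from 36.4 to 48.5 CPM with DMSO to 20.4 to 22.8 and 19.96 to 22.2 with the drugs, changes of -0.95 and -0.96. TM7SF2, SC5D and PMVK were the 3 of the 18 that fell less than 2-fold with etoposide.

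Per length, the most abundant synthesis members with DMSO were FDFT1 at 333 ± 34.3 TPM and FDPS at 329 ± 16.4 TPM, and their spreads overlapped. HMGCS1 followed at 202 ± 48.8, then ACAT2 at 157 ± 17.3, IDI1 at 152 ± 28.0 and MSMO1 at 136 ± 29.5 TPM, neighbours whose spreads also overlapped. HSD17B7 was the lowest, at 18.02 ± 2.31 TPM, below PMVK at 28.4 ± 3.83, TM7SF2 at 31.3 ± 2.01 and SC5D at 31.4 ± 7.76 TPM. With etoposide FDPS led at 108 ± 7.08 TPM, ahead of FDFT1 at 76.5 ± 0.951, and ACAT2 had dropped to near the bottom of the order, at 15.0 ± 1.07 TPM. With tozasertib the same pair led, FDPS at 104 ± 2.28 and FDFT1 at 69.8 ± 4.31 TPM, and ACAT2 was at 13.0 ± 1.13. Across the 18 genes, the log2 DMSO level in TPM and the log2 fold change had a rank correlation of -0.616 with etoposide and -0.608 with tozasertib, so genes with more transcript with DMSO tended to fall further. This is a description over genes that share libraries, and the DMSO level enters both measures.

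**Figure D2:**
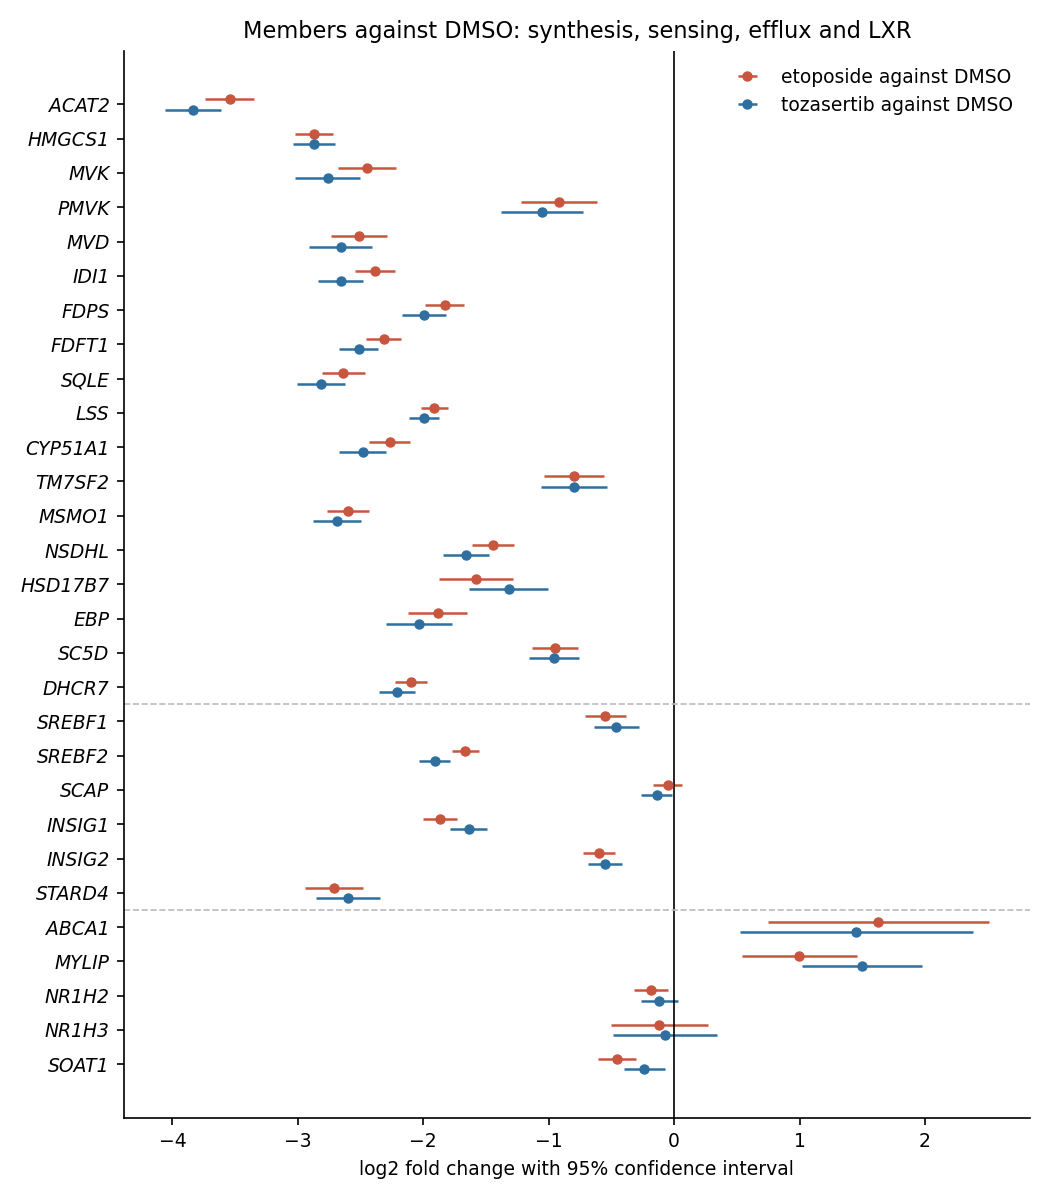
Fitted log2 fold changes of the 29 members tested, on the horizontal axis, for etoposide and tozasertib against DMSO, with 95% confidence intervals, in pathway order and with dashed lines between the synthesis, sensing, and efflux and LXR sets. Intervals lie left of 0 for all 18 synthesis members and right of 0 for ABCA1 and MYLIP.

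The machinery that senses sterols split by gene. SREBF2, which encodes the SREBP that mainly drives cholesterol genes, stood at 309, 326, 333 and 343 CPM with DMSO, 99.6, 104, 107 and 103 with etoposide and 88.2, 85.5 and 88.3 with tozasertib. It fell 3.17-fold with etoposide and 3.75-fold with tozasertib. The log2 changes of SREBF2 were -1.66 (95% CI -1.77 to -1.55, adjusted p = 3.47e-11) and -1.91 (95% CI -2.03 to -1.78, adjusted p = 3.22e-11). SREBF1, whose protein mainly drives fatty acid genes, fell less, and stood at 113, 118, 108 and 99.6 CPM with DMSO, 83.2, 76.8, 69.4 and 71.4 with etoposide and 79.8, 86.9 and 73.0 with tozasertib. The log2 changes of SREBF1 were -0.55 (95% CI -0.71 to -0.38, adjusted p = 4.13e-05) and -0.46 (95% CI -0.64 to -0.28, adjusted p = 3.67e-04), with no overlap of either drug with DMSO. SREBF1 overlaps RAI1 on the other strand by 1055 bases.

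SCAP, the escort of the SREBP proteins, was the only sensing member not called. Its libraries read 106, 107, 106 and 98.5 CPM with DMSO, 95.8, 97.6, 105 and 104 with etoposide and 93.2, 92.3 and 98.8 with tozasertib, and both drug groups overlapped DMSO. The log2 change was -0.05 (95% CI -0.16 to 0.06, adjusted p = 0.435) with etoposide and -0.14 (95% CI -0.26 to -0.01, adjusted p = 0.0547) with tozasertib. Of the 20 other settings, 6 called SCAP lower with tozasertib, at log2 changes of -0.19 to -0.14, among them those without DMSO replicate 1 or 4, etoposide replicate 1 or tozasertib replicate 4.

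INSIG1, which holds SCAP back when sterols are plentiful, is itself an SREBP target. It stood at 128, 123, 125 and 137 CPM with DMSO, 32.8, 37.6, 36.1 and 34.2 with etoposide and 39.0, 43.1 and 41.8 with tozasertib. INSIG1 fell 3.65-fold with etoposide and 3.11-fold with tozasertib (adjusted p = 8.08e-11 and 5.45e-10). Its paralogue INSIG2 moved less, from 40.1 to 41.5 CPM with DMSO to 25.6 to 28.6 and 26.2 to 29.2, log2 changes of -0.60 and -0.55. STARD4, a soluble protein that carries cholesterol between membranes, fell as far as the synthesis genes did. It stood at 92.4, 108, 113 and 129 CPM with DMSO, 16.8, 19.1, 14.2 and 17.6 with etoposide and 17.9, 18.7 and 18.2 with tozasertib, and its log2 changes were -2.71 (95% CI -2.94 to -2.48, adjusted p = 2.88e-10) and -2.60 (95% CI -2.86 to -2.35, adjusted p = 1.06e-09).

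Promoter sequence was set beside these falls, because SREBP acts through sterol response elements that commonly lie beside a box for the factor NF-Y. RefSeq promoter windows of GRCh38.p14, from 250 bases before the start to 50 bases from it, matched 26 of the 30 members (not ACAT2, FDFT1, SQLE and ABCG1). The NF-Y box CCAAT, on either strand, was present in 13 of 15 synthesis promoters (86.7%), 3 of 6 sensing promoters and 2 of 5 efflux and LXR promoters, and in 37.4% of the 11023 tested genes with a window. A sterol response element core, TCACNCCAC on either strand, was present in SREBF2 alone among the members and in 1.052% of the tested genes. Its shorter form CACNCCAC, added after the data were seen and contained in the longer one, was present in IDI1, SC5D, SREBF2, INSIG1 and ABCA1 and in 5.48% of the tested genes. An exact pair of AGGTCA half-sites 4 bases apart, 1 strict form of the repeat LXR binds, was in none of the 26 members. It was in none of the 11023 and in 0.02% of all 35116 promoters searched. So strict a string cannot show whether a promoter lacks an LXR site, and nothing is read from its absence. The sterol response element core is likewise 1 exact string. Its absence does not show that a promoter lacks such an element. A match to these letters is not a shown binding site.

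The stretches before the first annotated exon are printed for SREBF2, HMGCS1, MSMO1, STARD4 and ABCA1. SREBF2 holds the core and a box and fell 3.17-fold with etoposide. The strongly lowered HMGCS1, MSMO1 and STARD4 hold boxes and no exact match to the core. ABCA1, which rose from very few reads, holds the shorter form and no box. The limits of its rise are given below. The stretches run 5′ to 3′ on the strand of the gene, with CCAAT and its reverse complement, the core and its shorter form in capitals. The core of SREBF2 begins 133 bases before the RefSeq start and its box 106 bases before. HMGCS1 shows 1 box, 155 bases before the start, and a second begins 100 bases before, beyond the stretch shown. MSMO1 holds 4 boxes, the nearest 34 bases before the start, and STARD4 holds 2, at 161 and 130 bases. Boxes did not go with direction in every member. Not printed are MYLIP, which rose and holds 2 boxes, and CYP51A1 and PMVK, which fell and hold none. The coordinates are chr22:41832855-41833104 (plus strand) for SREBF2, chr5:43313513-43313662 (minus) for HMGCS1, chr4:165327419-165327666 (plus) for MSMO1, chr5:111512591-111512785 (minus) for STARD4 and chr9:104928156-104928405 (minus) for ABCA1.
SREBF2: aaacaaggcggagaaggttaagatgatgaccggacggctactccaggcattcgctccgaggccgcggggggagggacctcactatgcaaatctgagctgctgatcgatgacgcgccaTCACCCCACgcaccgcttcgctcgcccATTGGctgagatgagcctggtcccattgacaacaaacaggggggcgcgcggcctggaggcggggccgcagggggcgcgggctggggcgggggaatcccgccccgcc
HMGCS1: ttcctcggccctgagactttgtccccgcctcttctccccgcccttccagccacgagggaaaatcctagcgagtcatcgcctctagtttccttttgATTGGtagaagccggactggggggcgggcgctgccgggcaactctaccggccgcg
MSMO1: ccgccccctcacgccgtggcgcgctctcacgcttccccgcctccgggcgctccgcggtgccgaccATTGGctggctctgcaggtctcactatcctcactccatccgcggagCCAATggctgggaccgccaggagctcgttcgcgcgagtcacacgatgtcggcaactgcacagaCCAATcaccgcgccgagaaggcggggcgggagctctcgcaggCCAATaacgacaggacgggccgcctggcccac
STARD4: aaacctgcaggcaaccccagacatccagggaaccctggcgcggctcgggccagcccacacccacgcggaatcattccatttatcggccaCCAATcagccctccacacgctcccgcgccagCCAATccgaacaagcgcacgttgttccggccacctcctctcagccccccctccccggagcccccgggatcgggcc
ABCA1: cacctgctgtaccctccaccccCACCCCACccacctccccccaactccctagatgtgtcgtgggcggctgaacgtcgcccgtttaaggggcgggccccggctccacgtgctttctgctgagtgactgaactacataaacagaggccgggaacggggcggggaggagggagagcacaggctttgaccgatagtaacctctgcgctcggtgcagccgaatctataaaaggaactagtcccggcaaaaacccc

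The 6 efflux and LXR members did not move as a set, and ABCA1 and MYLIP were called higher with both drugs. With etoposide 2 of the 5 tested were called higher and 2 lower, where 27.7% of all genes were called higher. With tozasertib 2 were called higher and 1 lower, where 29.9% of all genes were called higher. ABCA1 passed the filter on low counts through the drug libraries, so its place in the higher counts was in part built in, and nothing is read from these counts about the set. Their median log2 change was -0.12 with etoposide and -0.07 with tozasertib.

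ABCA1, the transporter that loads cholesterol onto apolipoprotein particles, was read very rarely. Its reads numbered 2, 10, 4 and 7 with DMSO, 28, 16, 19 and 20 with etoposide and 25, 15 and 25 with tozasertib. These are 0.0690, 0.355, 0.124 and 0.235 CPM with DMSO, 0.683, 0.517, 0.534 and 0.697 with etoposide and 0.427, 0.524 and 0.678 with tozasertib, so the drug groups lay above DMSO. The log2 change was 1.63 (95% CI 0.75 to 2.51, adjusted p = 0.00375) with etoposide and 1.45 (95% CI 0.53 to 2.38, adjusted p = 0.0105) with tozasertib. ABCA1 reached the level the filter asks for, 0.318 CPM in at least 3 libraries, in 1 of 4 DMSO libraries but in all 7 drug libraries. It thus entered the test through the groups where it is high, so a difference was built into its passing. Its level was 0.0296 ± 0.0199 TPM with DMSO, 0.1000 ± 0.0166 with etoposide and 0.0938 ± 0.0216 with tozasertib. Without DMSO replicate 1 the rise was 1.35 and 1.18 (adjusted p = 0.00875 and 0.0241). ABCG1, the companion transporter, had 0 reads in 9 of the 11 libraries, 1 read in etoposide replicate 4 and 2 in tozasertib replicate 2, and was not tested. A count of 0 allows up to 3 reads in a library, by counting error alone.

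**Figure D3:**
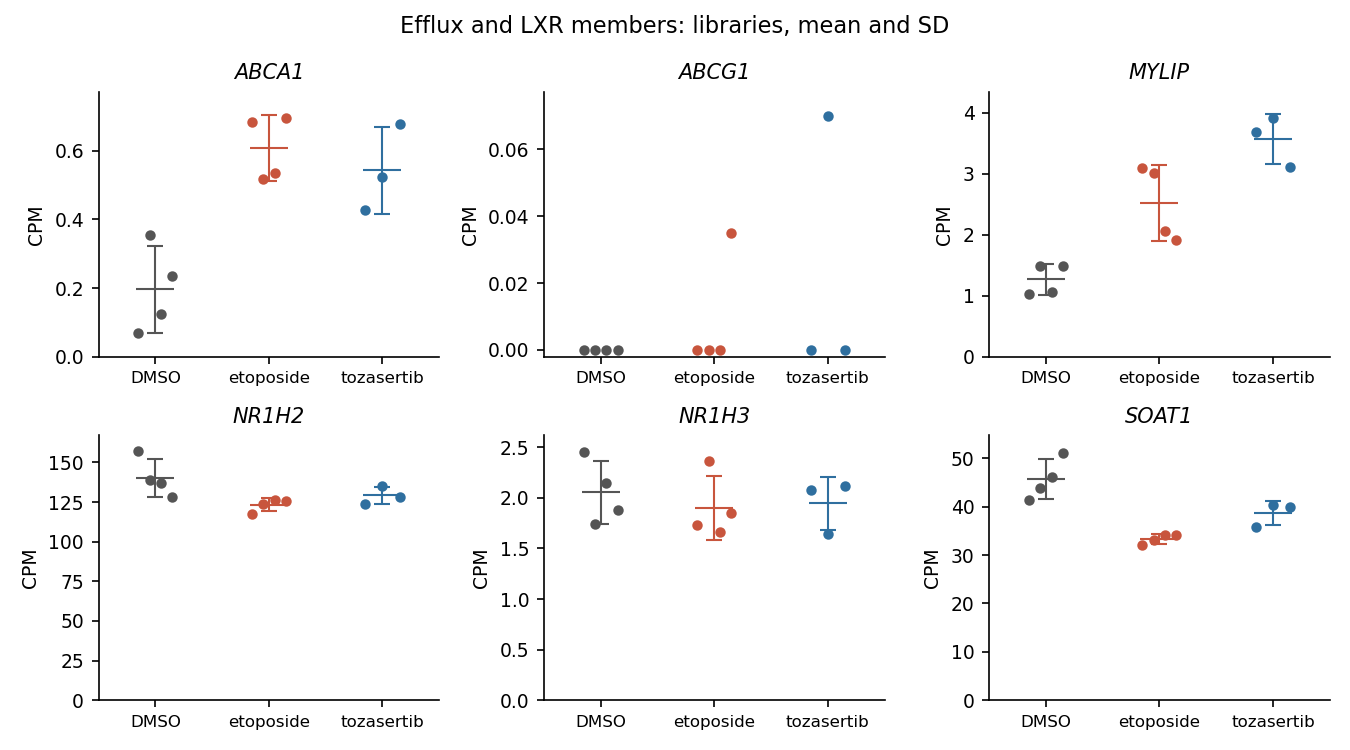
CPM of the 6 efflux and LXR members in each library, by group, with the mean and SD (for ABCG1 the libraries alone). The drug libraries of ABCA1 and MYLIP lie above all DMSO libraries, those of NR1H3 lie among them, and ABCG1 is at or near 0 throughout.

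MYLIP, an LXR-induced ubiquitin ligase that sends lipoprotein receptors for degradation, rose under both drugs from a low level. It stood at 1.03, 1.49, 1.06 and 1.48 CPM with DMSO, 3.10, 3.01, 2.05 and 1.92 with etoposide and 3.69, 3.92 and 3.12 with tozasertib. The log2 change was 1.00 (95% CI 0.54 to 1.46, adjusted p = 0.00123) with etoposide and 1.496 (95% CI 1.02 to 1.97, adjusted p = 6.56e-05) with tozasertib. MYLIP reads numbered 30 to 44 in DMSO libraries, 55 to 127 under etoposide and 112 to 216 under tozasertib, and all libraries passed the filter level.

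The LXR receptors themselves changed little. NR1H2, the receptor present in most tissues, stood at 157, 139, 137 and 128 CPM with DMSO, 118, 124, 126 and 126 with etoposide and 124, 135 and 128 with tozasertib. It was called lower with etoposide, with a log2 change of -0.19 (95% CI -0.32 to -0.05, adjusted p = 0.0226), with no overlap of the groups but a call lost in 3 of 20 other settings (without etoposide replicate 1 among them), and not with tozasertib, at -0.12 (95% CI -0.27 to 0.03, adjusted p = 0.1503). NR1H3, the receptor best known in liver and macrophages, was at 1.74 to 2.45 CPM with DMSO and at 1.66 to 2.36 and 1.64 to 2.11 with the drugs, overlapping throughout. Its log2 changes were -0.12 (95% CI -0.51 to 0.27, adjusted p = 0.601) and -0.07 (95% CI -0.49 to 0.35, adjusted p = 0.771). Per length, NR1H2 stood at 99.8 ± 5.11 TPM with DMSO and NR1H3 at 2.29 ± 0.242 TPM.

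SOAT1, which esterifies cholesterol for storage in droplets, fell slightly. It stood at 41.5, 43.8, 46.2 and 51.2 CPM with DMSO, 32.0, 33.0, 34.1 and 34.1 with etoposide and 35.9, 40.4 and 39.9 with tozasertib. The log2 change was -0.46 (95% CI -0.61 to -0.30, adjusted p = 9.48e-05) with etoposide and -0.24 (95% CI -0.40 to -0.08, adjusted p = 0.0153) with tozasertib. SOAT1 was no longer called in either comparison when counts were scaled by transcript length (log2 changes -0.29 and -0.09, adjusted p = 0.185 and 0.702), nor with tozasertib without tozasertib replicate 1 (adjusted p = 0.0856).

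The drugs were then set against each other, a comparison that DMSO enters only through the shared spread, filter and scaling. Of the 29 members tested, 2 were called lower with tozasertib than with etoposide and 1 higher, against 5.45% and 5.67% of all genes, a share close to the background. SREBF2 was lower by 0.24 on the log2 scale (95% CI -0.36 to -0.13, adjusted p = 0.0103) and IDI1 by 0.28 (95% CI -0.45 to -0.11, adjusted p = 0.0392). INSIG1 was higher by 0.23 (95% CI 0.09 to 0.38, adjusted p = 0.0420). None of the 3 overlapped between the drugs, but neither did ACAT2, PMVK, FDPS, FDFT1, NSDHL, MYLIP and SOAT1, which were not called. How many of all genes separate in this way was not counted, so nothing is read from the separation. The IDI1 call was lost in 11 of 20 other settings and the INSIG1 call in 14, both of them without DMSO replicate 3, etoposide replicate 3 or 4, or any single tozasertib library. Among the settings that lost both was a replicate block (adjusted p = 0.0934 for IDI1 and 0.0723 for INSIG1). The SREBF2 call was lost in 2 settings, with library size alone and without tozasertib replicate 2. Without DMSO replicate 1, 7 of the 24 synthesis and sensing members were called lower, in a fit that called 10.9% of all genes lower.

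The estimate was below 0 for 15 of the 18 synthesis members and for 8286 of all 17039 genes tested. The median was -0.15 for the 18 and 0.01 for all genes. The 18 genes share libraries and are not independent. Intervals bound what was not called. The 95% CI of the difference was -0.15 to 0.16 for HMGCS1 and -0.26 to 0.26 for TM7SF2, both centred near 0, and -0.20 to 0.03 for LSS. ACAT2, at -0.29 (95% CI -0.50 to -0.08, adjusted p = 0.0783), and MYLIP, at 0.50 (95% CI 0.05 to 0.95, adjusted p = 0.159), were not called, although their intervals leave out 0 before adjustment. ABCA1 was too thinly read to say, with an interval of -0.997 to 0.65.

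**Figure D4:**
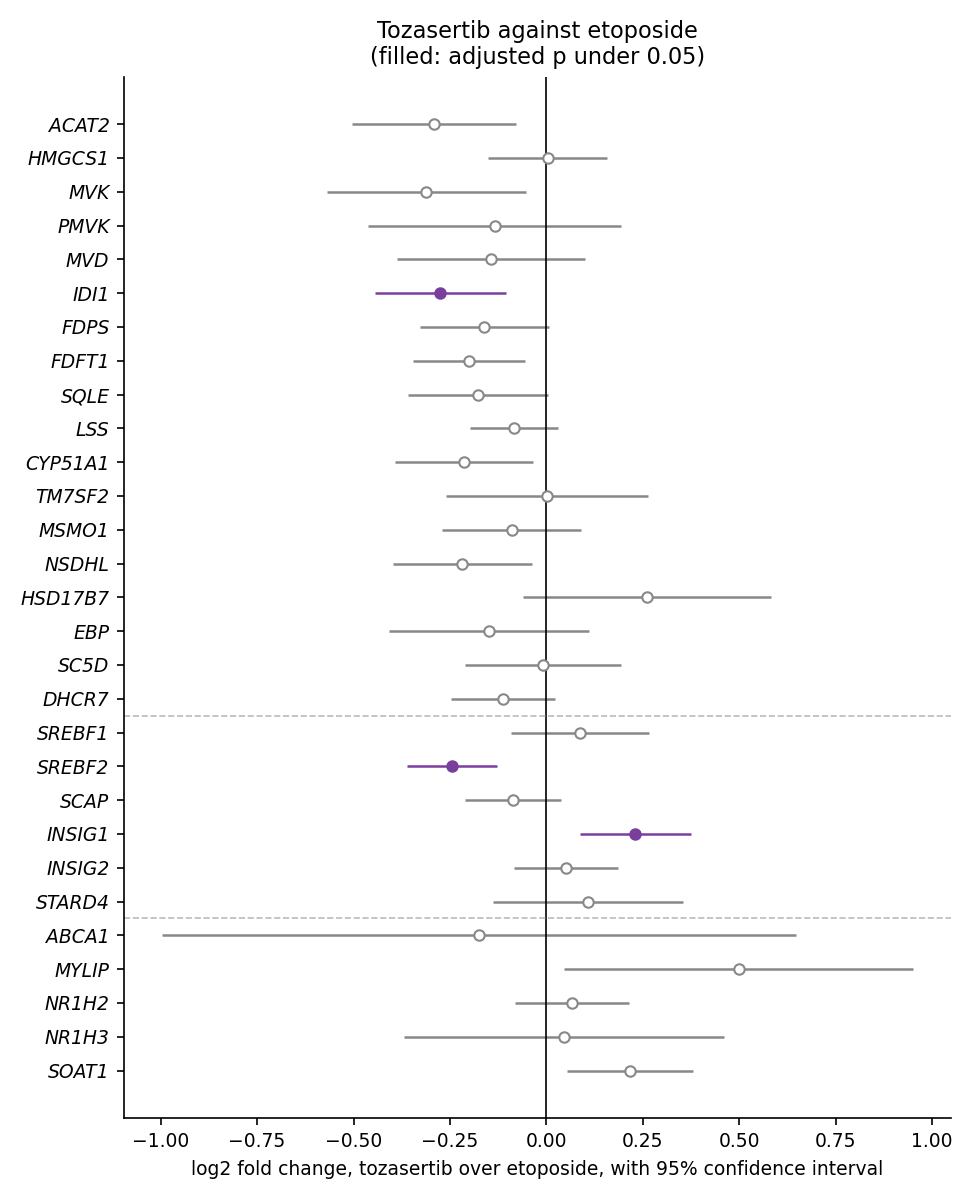
Log2 fold changes of tozasertib over etoposide for the 29 members tested, with 95% confidence intervals not adjusted for the number of genes, and filled points for the 3 genes called at an adjusted p under 0.05. Most synthesis members lie slightly left of 0, and SREBF2, IDI1 and INSIG1 are the filled points.

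Transcripts of a gene did not all fall alike in Salmon's estimates. IDI1 was carried with DMSO mainly by the transcript ENST00000695775.1, with 75.2% ± 4.13 (SD, n = 4) of the IDI1 reads, and next by ENST00000381344.8, with 16.8% ± 1.82. The latter begins 233 bases upstream of the main transcript, on the minus strand of chromosome 10 (annotated 5′ ends at 1049119 and 1048886, GRCh38). The main IDI1 transcript read 138, 103, 121 and 125 CPM with DMSO, 13.7, 19.5, 20.995 and 18.8 with etoposide and 11.6, 15.0 and 9.19 with tozasertib. The upstream IDI1 transcript read 24.5, 26.4, 28.9 and 27.8 CPM with DMSO, 12.6, 8.23, 10.2 and 8.95 with etoposide and 9.07, 8.25 and 13.5 with tozasertib. Both were lower with the drugs, the main one by a ratio of means of 6.66 and 10.2 and the upstream one by 2.69 and 2.62, and the share of the upstream one was 32.5% ± 7.52 with etoposide and 40.2% ± 11.1 with tozasertib. The main transcripts of DHCR7 (91.0%, 84.7% and 79.9% of its reads with DMSO, etoposide and tozasertib) and HSD17B7 (84.4%, 77.2% and 64.8%) likewise held less of their gene, while that of INSIG2 held more (65.2%, 74.3% and 76.2%). These are estimates from short single-end reads split between overlapping transcripts, were not tested, and rest on fewer reads with the drugs.

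**Figure D5:**
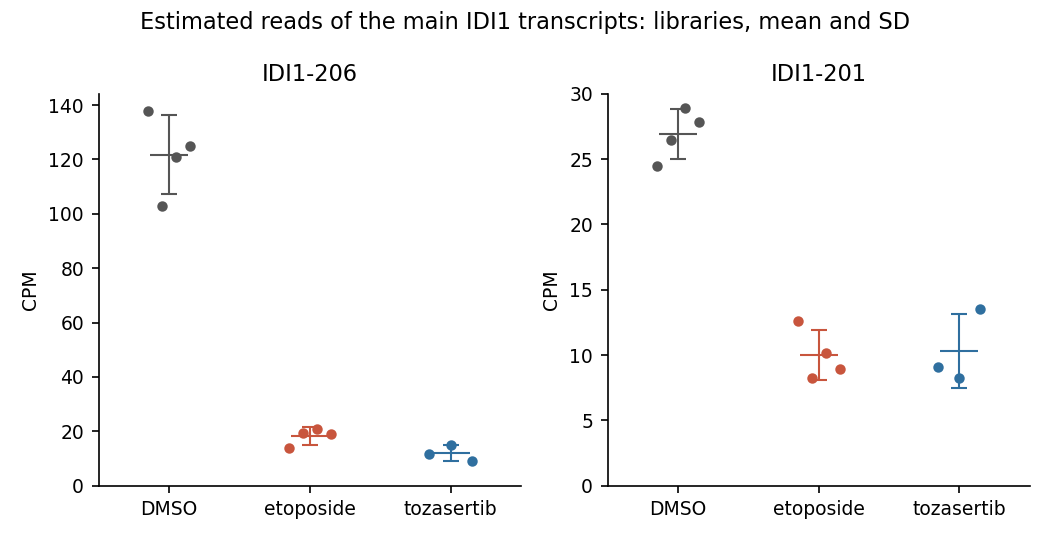
Estimated CPM of the main IDI1 transcripts in each library, by group, with mean and SD and separate vertical axes from 0. The mean of the main transcript falls from 121.7 CPM to 18.3 and 11.9, and that of the upstream one from 26.9 to 9.99 and 10.3 CPM.

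Genes around the members were read from 6 further lists, whose counts stand beside the all-gene shares of 30.7% lower and 27.7% higher with etoposide and 29.4% lower and 29.9% higher with tozasertib. All 10 fatty acid genes under SREBP were called lower with each drug, with a median log2 change of -1.30 and -1.29. SCD, the stearoyl-CoA desaturase, changed by -2.41 and -2.30, the polyunsaturated fatty acid desaturases FADS2 by -2.06 and -1.92 and FADS1 by -2.28 and -2.42, and the elongase ELOVL6 by -2.06 and -2.12, each with etoposide and then tozasertib. ACSS2, which makes acetyl-CoA from acetate, changed by -0.57 and -0.93, and was called lower with tozasertib than with etoposide (log2 difference -0.36, adjusted p = 0.0181), a call lost in 5 of 20 other settings, among them without etoposide replicate 3 or 4 or tozasertib replicate 1 or 2.

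Of 14 genes of lipoprotein uptake and intracellular sterol transport, 7 were called lower and 4 higher with etoposide, and 6 lower and 3 higher with tozasertib, the higher counts being near or below the all-gene share. The lipoprotein receptors LRP8 (-2.46 and -2.35) and VLDLR (-1.78 and -1.58) fell, as did TMEM97, an SREBP-induced sterol-binding protein (-2.28 and -3.07). TMEM97 read 13.0 ± 0.774 CPM with etoposide (SD, n = 4) and 7.57 ± 0.692 with tozasertib (SD, n = 3), and was called lower with tozasertib (log2 difference -0.78, adjusted p = 4.45e-05 in edgeR). In contrast, the multiligand receptor LRP1 rose by 2.21 and 1.95, NCEH1, which hydrolyses cholesterol esters, by 1.00 and 0.91, and LIPA, the lysosomal acid lipase, by 0.68 and 0.99. LIPA was higher with tozasertib than with etoposide (log2 difference 0.31, adjusted p = 0.00741), a call lost with length-scaled counts (adjusted p = 0.0662).

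Of 9 genes of SREBP processing and sterol-regulated degradation, 4 were called higher and 3 lower with each drug, where the lower count is near the all-gene share. RNF145, a sterol-responsive ubiquitin ligase, changed by -1.14 and -0.68 and ERLIN1 by -0.31 and -0.59, both called lower with each drug. ERLIN2, the partner of ERLIN1, rose by 0.72 and 0.70. Of 10 genes in the isoprenoid branches, 5 were called lower and 1 higher with etoposide, and 6 lower and 1 higher with tozasertib. That is more lower and fewer higher than the all-gene shares, but the list is short and nothing is read from the difference. NUS1, of dolichol synthesis, changed by -0.59 and -0.62 and COQ2, of ubiquinone synthesis, by -1.001 and -0.82. FNTB, a farnesyltransferase subunit, changed by -0.62 and -0.26, and its call with tozasertib was lost with library size alone or length-scaled counts. DHDDS, the partner of NUS1, rose by 0.19 and 0.32, although its call with etoposide was lost in 6 of 20 other settings, among them without DMSO replicate 2 or 3 or etoposide replicate 1, 3 or 4. ICMT, which methylates prenylated proteins, changed by 0.03 with etoposide (adjusted p = 0.602) and by -0.48 with tozasertib (adjusted p = 5.65e-06), and the drugs differed (log2 difference -0.51, adjusted p = 4.14e-05).

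Among 10 other LXR targets and partners, 9 of them tested, none was called higher and 2 lower with etoposide, and 4 were called higher and 2 lower with tozasertib, lower counts that are below the all-gene shares. APOE, an apolipoprotein that LXR induces, held 19, 16, 21 and 4 reads with DMSO, 24, 8, 14 and 11 with etoposide and 75, 41 and 58 with tozasertib, so that the tozasertib libraries lay above the rest. Its log2 change was -0.29 with etoposide (adjusted p = 0.562) and 1.496 with tozasertib (adjusted p = 0.00508), and the drugs differed (log2 difference 1.78, adjusted p = 0.01005), calls lost with length-scaled counts alone. The other genes called higher with tozasertib were RXRB, an LXR partner, by 0.23 (adjusted p = 0.00265), and, named after their values were seen, the sterol transporter ABCG4 by 1.60 (adjusted p = 0.0195) and SMPDL3A, a phosphodiesterase that LXR induces, by 0.32 (adjusted p = 0.0339). NCOA6, a coactivator, changed by -0.20 and -0.22 and was called lower with both, but the call was lost in 10 of 20 other settings with etoposide and in 6 with tozasertib. These included, for etoposide, leaving out DMSO replicate 2, 3 or 4 or etoposide replicate 1, 2 or 4, and, for tozasertib, DMSO replicate 3 or 4 or tozasertib replicate 2 or 4. The LXR partner RXRA changed by -0.24 and -0.10 and was called lower with etoposide alone. With tozasertib, LPCAT3, a phospholipid-remodelling enzyme that LXR induces, changed by -0.34 (adjusted p = 0.00106). Of 6 oxysterol enzymes, 4 could be tested. CYP46A1, the 24-hydroxylase, was called higher with both drugs, from 12 reads over the 4 DMSO libraries to 154 over the 4 etoposide and 82 over the 3 tozasertib libraries. Tozasertib replicate 2 held 5 of those 82 reads, and CYP46A1 passed the filter through the drug libraries. CYP27A1, the mitochondrial sterol hydroxylase, was lower with etoposide (-0.43, adjusted p = 0.00510) and was not called with tozasertib (adjusted p = 0.986). HSD3B7, of bile acid synthesis, was lower with tozasertib (-0.26, adjusted p = 0.0353), a call lost in 7 of 20 other settings, among them without DMSO replicate 1 or any single tozasertib library.

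The cells were checked against markers. SOX10, a factor of the melanocyte lineage, read 514 ± 26.3, 323 ± 8.90 and 379 ± 3.30 CPM in the 3 groups (SD), and was called lower with both drugs. MITF, the melanocyte master factor, went up from 7.68 CPM to 9.44 and 9.25 and S100B, a calcium-binding protein of these cells, from 1.17 to 2.18 and 3.31, both called higher with each drug. The pigment gene PMEL read 0.325, 0.404 and 3.85 CPM and was called higher with tozasertib alone. Of the other pigment genes, MLANA was at 0 reads in all 11 libraries and TYR and DCT were at or near 0. All 5 markers of dividing cells fell with both drugs, and their summed level ran from 899 to 999 CPM in DMSO libraries, 243 to 307 under etoposide and 143 to 189.7 under tozasertib. Fibroblast markers summed to 27.8 to 31.9, 137 to 155 and 119 to 124 CPM. LUM and COL1A1, called higher with both drugs, made up most of these sums, PDGFRB was called lower with both (3.00, 1.15 and 1.44 CPM), COL1A2 was not called (0.478, 0.429 and 0.423 CPM) and DCN was near 0. Keratinocyte markers summed to 47.9 to 66.6, 51.8 to 54.4 and 43.9 to 53.2 CPM, nearly all KRT10, with KRT5 and KRT1 at or near 0. Immune markers summed to 56.01 to 68.3, 34.8 to 42.4 and 43.4 to 48.6 CPM, nearly all CD68, with CD3E and PTPRC at or near 0. Whether the fall of the dividing-cell markers has a part in that of the members was not tested.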

How the data were processed

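RNA sequencing was deposited for 11 SK-MEL-103 libraries. Poly(A) RNA was made into strand-keeping libraries and read single-end. In their processing notes the submitters list GRCh38 and the tools DESeq2 1.40.2, Salmon 1.9.0 and cutadapt 4.7, while the study's methods name STAR. Options of Salmon, the strand setting among them, are not given in the sources used. The authors deposited Salmon's estimated counts and TPM per transcript. Here the estimated counts were summed to genes by GENCODE 44 (437 of 251645 transcripts unmatched), rounded to whole numbers, filtered with filterByExpr (17039 genes kept) and fitted over all 3 groups with edgeR 4.0.16 (TMM, quasi-likelihood test, Benjamini-Hochberg adjustment over all genes) in R 4.3.3. Calls required an adjusted p under 0.05. DESeq2 1.42.0 served as an alternative, and the other alternatives were refits in edgeR. The steps were tested on simulated data. Tozasertib replicate 3 was not analysed here. The members, lists and tests were chosen with earlier results of these data known. Of each pathway list, the text names among the called genes those with the smallest adjusted p in either drug comparison (up to 4), and those called in a direction where 3 or fewer were, except 1 gene that is not reported here. Intervals on reads cover counting error only.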

Additional observations from a re-analysis of the deposited data

Results flagged for a closer look

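In 8 of the 115 groups of 4 libraries examined (6.957%), the highest or lowest library stood apart from the others by more than Dixon's 95% critical value, where chance gives about 1 in 20. ACAT2 read 12.7 CPM in etoposide replicate 2 against 10.7 to 11.01 in the others. With DMSO, replicate 1 was high for MVD (100.5 CPM against 73.2 to 76.5) and EBP (60.8 against 44.8 to 46.7) and low for NCEH1 (65.6 against 79.7 to 82.3). SCAP was low in DMSO replicate 4 (98.5 CPM against 105.6 to 106.8), and INSIG2 was high in DMSO replicate 3 (41.5 CPM against 40.1 in the others). ABCG1 read 0.0349 CPM, 1 read, in etoposide replicate 4 and 0 in the others. APOE, an apolipoprotein that LXR induces, read 0.135 CPM in DMSO replicate 4 against 0.568 to 0.655 in the others.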

How the results depend on the processing

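Over 20 alternatives, no member reversed direction after being called, and 23 to 24 synthesis and sensing members were called lower with each drug against DMSO. Their median log2 change with tozasertib was -1.92 with library size alone. The median of the efflux and LXR members ran from -0.19 to 0.15 with etoposide and from -0.13 to 0.03 with tozasertib over all alternatives, so its sign was not fixed. The count of efflux and LXR members lower with etoposide was 1 with DESeq2 size factors, length-scaled counts or only the groups compared (1 to 2 without single libraries). With tozasertib it was 0 with library size alone or length-scaled counts (0 to 1 without single libraries). Between the drugs, the count of synthesis and sensing members lower was 0 with library size alone, 1 with length-scaled counts and 4 with only the groups compared or DESeq2, and ran from 1 to 7 without single libraries. The count higher was 0 with DESeq2 size factors, no filter, length-scaled counts or DESeq2, and ran from 0 to 1 without single libraries. The count of efflux and LXR members higher was 1 with only the groups compared or a length correction, and ran from 0 to 1 without single libraries. The cause was not tested. Over all genes, 966 were higher and 929 lower with tozasertib than with etoposide, 1785 and 1767 with only the groups compared, and 1021 and 1493 with DESeq2, while without DMSO replicate 1 these were 1545 and 1854, and without tozasertib replicate 1 they were 565 and 471.

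Same-numbered libraries did not deviate together between DMSO and the drugs (correlations of -0.0973 to 0.0513). Between the drugs the 3 same-numbered pairs were all above 0 (0.0911 to 0.230), while differently numbered pairs ran from -0.207 to 0.161. Not all 3 were over 0.1 and etoposide replicate 3 had no partner, so the numbers were not taken as pairs. A replicate block was used as an alternative instead. With a replicate block, 1 synthesis and sensing member was lower and 0 higher between the drugs. With the block and a length correction these were 1 and 0, and 1 efflux and LXR member was higher. Against DMSO, the block left 23 synthesis and sensing members lower with each drug. Depth limits ABCA1, ABCG1, APOE and CYP46A1, which rest on few reads.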
